A study of Mus musculus with 6 samples.

Results

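Bone morphogenetic proteins (BMPs) and the Id genes they induce were followed in the embryonic heart as 10 genes: the ligands Bmp2, Bmp4, Bmp5, Bmp6, Bmp7 and Bmp10, and Id1, Id2, Id3 and Id4. They were taken by gene symbol, and all 10 were found among the 23284 genes of the expression table. RNA-seq had been made from heart ventricles of C57BL/6 mouse embryos at embryonic day 9.5 (E9.5), 3 labelled wild type (WT) and 3 labelled Tbx5ua -/- and called knockdown (KD). In KD embryos both alleles of Tbx5ua, the long noncoding RNA transcribed divergently from Tbx5, bore an insert of polyadenylation signals in exon 2, which truncates the transcript. Embryos of both groups were chimeras made with tetraploid host blastocysts, in which the embryo itself comes from the injected embryonic stem (ES) cells. The KD cells were clonal ES lines, made from ES cells that the paper names as C57BL/6 J-derived. The line behind each KD embryo is not given in the sources used here. The comparison asks whether knockdown of Tbx5ua RNA went with a different level of any of these genes in the ventricle.

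The table gives 1 value per gene and group, in FPKM (fragments per kilobase of transcript, scaled to library size). FPKM is per transcript length, so levels can be set side by side between genes as well as between groups. The table has no value of a single embryo, so no spread between embryos and no test is given here for any difference, and the depth of the libraries is unknown. The test results of the authors in the same table were not used. Nothing in the sources used here says whether the embryos came from separate litters. Changes are given as log2((KD + 0.1)/(WT + 0.1)), which understates the change of genes at low levels. A gene was counted as expressed at 1 FPKM or more in either group, which 11606 genes reached, and a change of 1.5-fold or more on this scale was the criterion for calling a gene higher or lower. Of the expressed genes 7.58% passed it, 4.48% higher and 3.10% lower in KD, so that 59.1% of passing genes were higher. When changes were taken relative to the median of endocardial markers, that share was 47.9%. The median change over all expressed genes was 0.00. Tbx5ua itself was not analysed here, so the knockdown was not checked in these data. The paper reports from qRT-PCR that Tbx5ua was strongly reduced, though not absent, in KD embryos at E9.5. Heart muscle was checked with 8 cardiomyocyte markers, most of which atrial muscle shares, all expressed and none past 1.5-fold with changes from -0.25 to 0.22, of which Myl7 was the highest at 13643 FPKM in WT and 12907 in KD.

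BMPs are secreted dimers of the TGF-beta superfamily. They bring together type I and type II serine/threonine kinase receptors, which phosphorylate Smad1, Smad5 and Smad9, and these enter the nucleus with Smad4. The Id genes are classical direct targets of this pathway. Id proteins have a helix-loop-helix domain but no DNA-binding basic region, and they hold back basic helix-loop-helix (bHLH) factors by pairing with the E proteins those factors need. In the embryonic heart Bmp2 is known as a signal of the atrioventricular canal, Bmp4 of the outflow tract and the mesoderm that feeds it, and Bmp10 of the trabecular ventricular muscle. Bmp5 and Bmp7 belong with Bmp6 to a closely related subgroup and are expressed in the heart tube.

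Among the genes of the 10 that were expressed, Bmp4 was the 1 that passed 1.5-fold. Its level was 6.52 FPKM in WT and 2.96 in KD, a change of -1.11, or 2.16-fold lower in KD. Of these 8 expressed genes, 3 had higher values in KD, 5 had lower values, and 7 lay within 1.5-fold. Their median change was -0.11, but -0.063 relative to cardiomyocyte markers, -0.18 relative to endocardial markers and -0.042 without genes that share a locus. The 1 call among the 8 was on the lower side, where 3.10% of all expressed genes passed, and 0 were called on the higher side.

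**Figure D1:**
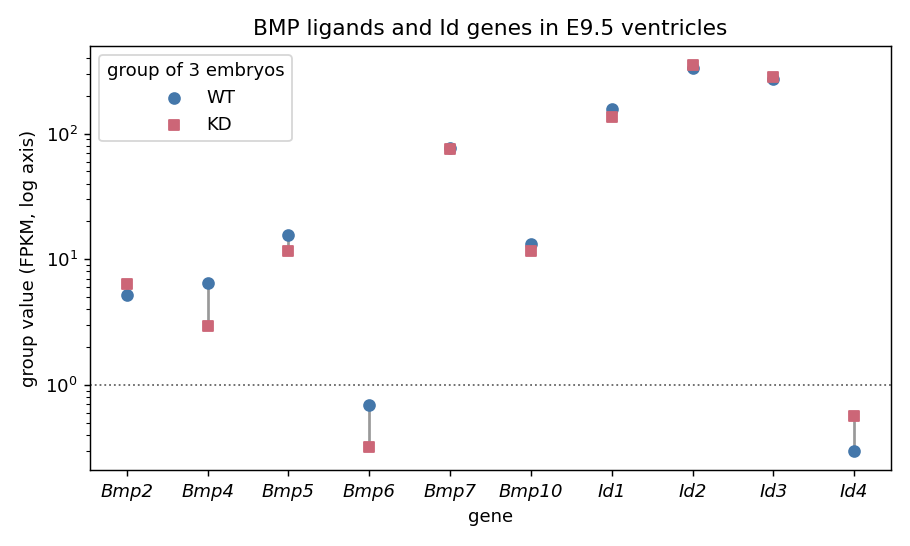
Group level in FPKM (log axis) of each of the 6 BMP ligands and 4 Id genes in WT and KD ventricles, 1 deposited group value per point and no error bars because no values of single embryos were used. Bmp4 has the widest gap among genes at 1 FPKM or more, from 6.52 in WT to 2.96 in KD, while the pairs of points for Bmp7, Id2 and Id3 nearly coincide.

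Among all 11606 expressed genes ranked from the most lowered, Bmp4 stood at 105. Genes at low levels passed the criterion more often. Of genes with a mean level from 1 to 5 FPKM, where Bmp4 lies at 4.74 FPKM, 13.8% passed in either direction. The change of Bmp4 lay outside the range from the 5th to the 95th percentile of the 1547 genes in the same bin of level, which ran from -0.47 to 0.55. In the order of expressed genes by level, Bmp4 went from 6953 in WT to 9068 in KD.

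The Bmp4 row of the table covers chr14:46379524-46390599 (mm10), and its locus is shared with Gm15217. In GENCODE M21 Bmp4 lies at chr14:46383520-46390669 on the minus strand and Gm15217 at chr14:46379414-46383608 on the plus strand, so that they overlap by 89 bases. Gm15217 is listed at 0 in both groups. Reads of the overlap cannot be assigned by strand in libraries that do not mark it. Leaving out genes that share a locus, chosen after seeing the data, removes Bmp4 and leaves 0 of the 10 genes past 1.5-fold. The 250 bases before the RefSeq start of Bmp4 are shown because it is the member with the change past 1.5-fold. They lie at chr14:46390670-46390919 on the minus strand (RefSeq, GRCm38.p6), written 5′ to 3′ with GTCT or its reverse complement AGAC, the core of the Smad-binding element, in capitals.
Bmp4: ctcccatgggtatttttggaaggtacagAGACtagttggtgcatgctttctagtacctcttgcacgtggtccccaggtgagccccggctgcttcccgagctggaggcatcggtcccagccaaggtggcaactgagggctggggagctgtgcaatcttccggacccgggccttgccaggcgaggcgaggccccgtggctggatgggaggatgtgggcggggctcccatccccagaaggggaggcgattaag
The window holds AGAC once, 222 bases before the start. That core stands in 82.9% of all 32851 promoter windows of the same length, so its presence there does not mark Bmp4 out.

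Bmp7 was the main BMP ligand transcript of the ventricle. It stood at 77.4 FPKM in WT and 75.2 in KD, a change of -0.04 (chr2:172869687-172940293). Its sign turned when changes were taken relative to the cardiomyocyte markers, where it was 0.01. Of genes with a mean level from 20 to 100 FPKM, 1.92% passed 1.5-fold, and Bmp7 was not among them. Its rank by level was 1442 in WT and 1478 in KD.

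Bmp5 and Bmp10 came next in level. Bmp5, a close relative of Bmp7, was at 15.5 FPKM in WT and 11.6 in KD, a change of -0.42, or 1.33-fold (chr9:75775365-75899017). It did not reach 1.5-fold, but it lay below the 5th percentile of -0.34 among the 1571 genes in the same bin of level. Bmp10, which sustains growth of the trabecular muscle, was at 13.2 and 11.7 FPKM, a change of -0.18 (chr6:87429002-87434512). That is within the 5th to 95th percentile of -0.34 to 0.39 at the same level.

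Bmp2 was the expressed ligand with the higher value in KD. It stood at 5.18 FPKM in WT and 6.34 in KD, a change of 0.29, or 1.22-fold (chr2:133553199-133562885). Genes of its level ran from -0.39 at the 5th percentile to 0.47 at the 95th. Of genes with a mean level from 5 to 20 FPKM, which takes in Bmp2, Bmp5 and Bmp10, 3.66% passed 1.5-fold, and none of these 3 ligands did. Bmp6 was below the limit of expression, at 0.696 FPKM in WT and 0.322 in KD (chr13:38345716-38499728), and its change of -0.92 rests on these low values.

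**Figure D2:**
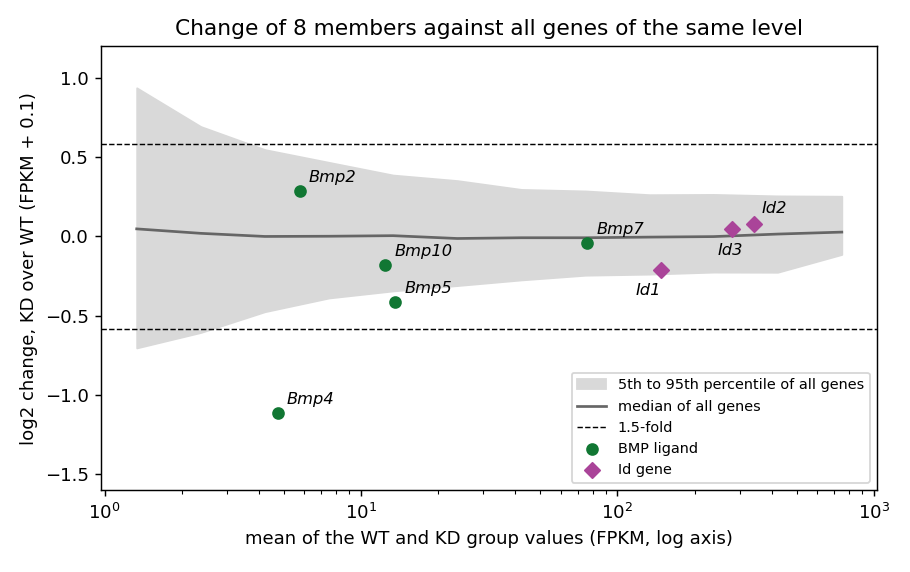
Log2 change, KD over WT, of the 8 expressed genes against the mean of both group values (FPKM, log axis), over the 5th to 95th percentile (grey) and median (line) of all expressed genes in bins of level, with dashed lines at 1.5-fold. Bmp4 at -1.11 lies far under the grey band and beyond the dashed line, Bmp5 at -0.42 lies just under the band, and the other 6 genes lie inside it.

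The ligand mixture kept Bmp7 in first place. The 6 ligands summed to 119 FPKM in WT and 108 in KD, and without Bmp7 to 41.2 and 32.9 FPKM. Bmp7 made up 65.3% (WT) and 69.5% (KD) of all ligand transcript on this scale. The share of Bmp4 was 5.50% in WT and 2.74% in KD, while that of Bmp2 was 4.37% and 5.87%. In WT the order of levels was Bmp7, Bmp5, Bmp10, Bmp4, Bmp2 and Bmp6, and in KD Bmp10 and Bmp5 stood nearly level and Bmp2 above Bmp4. The level of Bmp4 was thus 1.26 times that of Bmp2 in WT and 0.467 times that of Bmp2 in KD. Without a spread it cannot be said which neighbours in these orders differ.

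**Figure D3:**
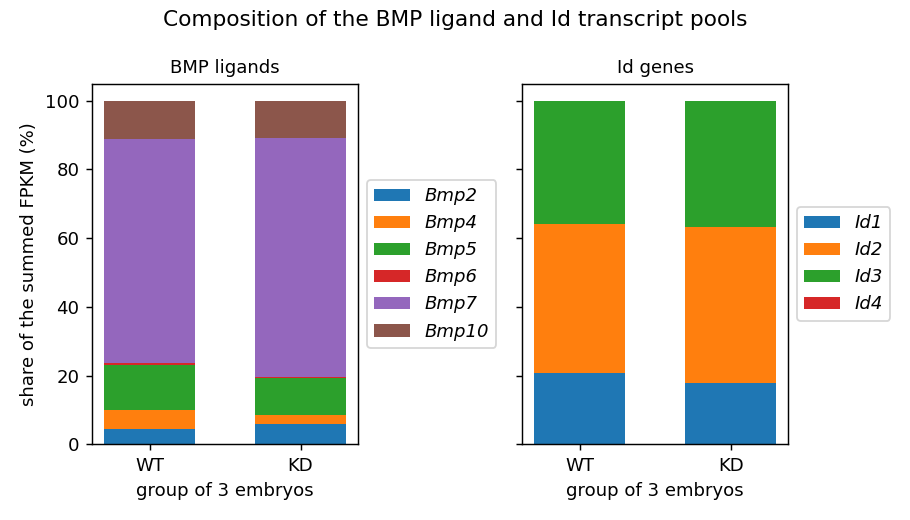
Share (percent) of the summed FPKM of the 6 BMP ligands and, separately, of the 4 Id genes that each gene holds in WT and KD. Bmp7 holds 65.3% and 69.5% of the ligand sum, the Bmp4 share goes from 5.50% to 2.74%, and Id2 leads the Id sum with 43.4% and 45.5%.

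Id1, Id2 and Id3 were each above every ligand in level in both groups, and none of them passed 1.5-fold. Id2 stood at 332 FPKM in WT and 351 in KD, a change of 0.08 (chr12:25093799-25096092). Id3 was at 274 and 283 FPKM, a change of 0.04 (chr4:136143822-136145392). Relative to the median of the endocardial markers Id3 was at -0.03, so its sign is not settled. Id1 had the lower value in KD, at 158 FPKM in WT and 136 in KD, a change of -0.21, or 1.16-fold (chr2:152736274-152737410). That value is inside, but near the edge of, the range for the 464 genes in the same bin of level, whose 5th percentile was -0.24. Of genes at a mean of 100 FPKM or more, 3.15% passed 1.5-fold.

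Id4 was the lowest of the Id genes, at 0.298 FPKM in WT and 0.562 in KD (chr13:48261427-48264036), below the limit of expression in both groups. The 4 Id genes together summed to 765 FPKM in WT and 770 in KD, a log2 change of 0.01, which was -0.020 with both groups scaled to the same sum and -0.063 relative to endocardial markers. Of that total Id1 contributed 20.7% (WT) and 17.7% (KD). The ratio of Id2 to Id1 was 2.10 in WT and 2.57 in KD, and that of Id2 to Id3 was 1.21 and 1.24. The order Id2, Id3, Id1, Id4 was the same in both groups.

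The windows before Id2, Id3 and Id4 are shown because these 3 span the Id family from its most to its least abundant transcript. No window of Id1 was at hand. RefSeq (GRCm38.p6) windows were at hand for 7 of the 10 genes, Bmp4, Bmp5, Bmp6, Bmp10, Id2, Id3 and Id4. Capitals mark GGCGCC, a GC-rich sequence that BMP-activated Smads are known to bind, and GTCT or AGAC, searched on both strands. The longer palindrome GTCTAGAC, which contains both short cores, was also searched. The windows are chr12:25096093-25096342 on the minus strand for Id2, chr4:136143572-136143821 on the plus strand for Id3 and chr13:48260866-48261115 on the plus strand for Id4. In GENCODE M21 Id2 lies at chr12:25093799-25097140 and Id3 at chr4:136143497-136145755. By that annotation the Id2 and Id3 windows lie inside the genes, not before them.
Id2: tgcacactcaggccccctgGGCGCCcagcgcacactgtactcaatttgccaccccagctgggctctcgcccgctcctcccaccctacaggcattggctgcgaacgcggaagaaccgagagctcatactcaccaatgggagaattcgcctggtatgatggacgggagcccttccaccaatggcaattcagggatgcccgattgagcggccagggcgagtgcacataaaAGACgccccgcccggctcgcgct
Id3: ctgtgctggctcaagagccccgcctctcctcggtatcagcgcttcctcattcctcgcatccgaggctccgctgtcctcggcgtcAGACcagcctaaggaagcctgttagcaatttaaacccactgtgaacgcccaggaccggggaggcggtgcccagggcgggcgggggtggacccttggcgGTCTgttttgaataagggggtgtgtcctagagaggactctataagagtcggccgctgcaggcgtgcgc
Id4: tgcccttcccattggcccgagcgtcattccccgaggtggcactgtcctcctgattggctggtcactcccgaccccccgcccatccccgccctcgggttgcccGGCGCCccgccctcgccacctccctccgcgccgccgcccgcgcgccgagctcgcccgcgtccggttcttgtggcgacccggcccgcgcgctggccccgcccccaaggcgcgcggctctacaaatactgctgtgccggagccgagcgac
GGCGCC was found 231 bases before the start of Id2 and 148 bases before that of Id4, in 2 of the 7 windows and in 9.59% of all windows. GTCTAGAC was in none of the 7 and in 0.167% of all. GTCT or AGAC was in 6 of the 7, and Id4 was the one without it. The letters G and C made up 62.8% of the Id2 and Id3 windows, 75.6% of the Id4 window and 63.2% of the Bmp4 window, and ranged over all 7 from 42.8% (Bmp5) to 75.6%, against a median of 52.4% over all windows. These matches describe the letters of the windows and no binding was measured.

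A ventricle sample holds several cell types, and in bulk tissue fewer cells of a type and less RNA per cell cannot be told apart. The paper reports that KD hearts at E9.5 had a hypoplastic right ventricle and irregular ventricular walls, with trabeculae missing in places. The tissue of the groups was thus not alike in form, and the part of this in the values was not tested. Of 8 outflow and second heart field markers, 3 were expressed and all 3 were at lower values in KD, 1 past 1.5-fold. That gene was Fgf8, at 2.45 FPKM in WT and 1.41 in KD. Sema3c was the most abundant at 5.38 and 4.47 FPKM. Changes ran from -0.75 to -0.22 with a median of -0.26, the summed level of all 8 was 11.8 FPKM in WT and 9.00 in KD, Tbx1 was listed at 0 in both groups and Isl1 was at 0.559 and 0.361 FPKM. The part of such cells in the Bmp4 value was not tested.

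Of 7 cushion and atrioventricular canal markers, all expressed, 2 were higher past 1.5-fold (Sox9 and Twist1), 1 was lower (Msx1), changes ran from -0.92 to 0.83 with Msx2 the highest in WT and Sox9 in KD, and their sum was 33.6 FPKM in WT and 36.9 in KD. The 7 trabecular markers, which include Bmp10 itself, had changes from -0.43 to 0.78 with a median of 0.25, Nppa as the most abundant and Gja5 past 1.5-fold on the higher side. The 8 endocardial markers, cells in which Id1 and Id3 are known to be expressed, had none past 1.5-fold, changes from -0.26 to 0.41 with a median of 0.07, Emcn as the most abundant and a sum of 155 FPKM in WT and 170 in KD. All 7 epicardial markers were at higher values in KD, 6 of them past 1.5-fold, with changes from 0.48 to 1.40, Tcf21 as the highest in KD, Wt1 as the highest in WT, and a sum of 47.6 and 97.0 FPKM. Aldh1a2 and Gpm6a, both among the 6, counted as expressed through their KD values alone. The part of these cells in the levels of Bmp2, Bmp10 and the Id genes was not tested.

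The remaining lists give the levels of markers of further cell types. Of 6 atrial markers 5 were expressed and 3 passed 1.5-fold on the higher side, with changes from -0.04 to 1.01 and Myl4 the most abundant of the list, and Sln was listed at 0. Nr2f1 and Vsnl1, both among the 3, counted as expressed through their KD values alone. The 6 erythroid markers were all expressed with none past 1.5-fold, changes ran from -0.36 to 0.45 with Hba-x the highest in WT and Hbb-y in KD, and their sum was 11444 FPKM in WT and 11520 in KD. None of 6 pharyngeal endoderm and foregut markers reached 1 FPKM, the most abundant being Nkx2-1 at 0.286 and 0.212 FPKM, and Shh and Sox2 were listed at 0. Of 6 neural crest and neural markers Tubb3 was the 1 expressed, at 12.2 FPKM in WT and 26.9 in KD.

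Of the other ligands of the family 8 were looked up, and they added little to the 6. None of Bmp3, Bmp8a, Bmp8b, Bmp15, Gdf2, Gdf5, Gdf6 and Gdf7 reached 1 FPKM, and the highest of these 8 was Gdf6 at 0.791 FPKM in KD. Bmp7, Bmp5 and Bmp10 therefore had the top 3 levels of the 14 ligands measured in each group.

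None of the expressed receptors passed 1.5-fold. Of 7 type I and type II receptors 6 were expressed, 5 at lower and 1 at higher values in KD, with a median change of -0.13. That median was -0.078 relative to cardiomyocyte markers and -0.20 relative to endocardial markers. The 1 at a higher value, Acvrl1 at 0.0093, was at -0.020 when both groups were scaled to the same sum and at -0.065 relative to endocardial markers. Bmpr1a, a type I receptor for Bmp2 and Bmp4, was the highest at 13.8 FPKM in WT and 11.6 in KD. Bmpr2, a type II receptor, was at 2.27 against 1.62 FPKM, a change of -0.46, the largest on the log2 scale among the 6. Of 6 genes listed as co-receptors 5 were expressed, and 1 passed 1.5-fold. The list includes Bambi, a decoy receptor that inhibits the signal, at 39.5 FPKM in WT and 37.9 in KD. Its change of -0.06 is the middle value of the 5. The median change of the list was thus -0.06, but 0.085 with no filter and 0.094 without genes that share a locus. This median was -0.011 relative to cardiomyocyte markers and -0.13 relative to endocardial markers. The gene past 1.5-fold in this list was Hfe2, the BMP co-receptor hemojuvelin, at 2.53 FPKM in WT and 4.34 in KD, a change of 0.76. Eng, the endothelial co-receptor endoglin, was the highest of them at 66.4 and 63.5 FPKM.

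None of the intracellular carriers of the signal passed 1.5-fold. Of 8 Smads and Smad inhibitors 7 were expressed, 3 at higher and 4 at lower values in KD, with a median change of -0.18. Smad4, the shared partner of the receptor-activated Smads, had the highest mean of both groups, at 14.6 FPKM in WT and 11.4 in KD, a change of -0.35. Smad1 was at 4.78 and 4.83 FPKM and Smad5 at 4.84 and 5.16 FPKM. The inhibitor Smad6, itself induced by BMP, was at 12.4 and 12.7 FPKM, above Smad4 in KD. Relative to endocardial markers Smad1 was at -0.061 and Smad6 at -0.038, and Smad1 was at -0.016 when both groups were scaled to the same sum, so the signs of these small changes are not settled.

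Extracellular antagonists and modulators held 2 genes past 1.5-fold on the scale used here, Nog and Sost, both higher in KD. Nog encodes noggin, which binds Bmp2, Bmp4 and Bmp7 and keeps them from their receptors, and it stood at 0.947 FPKM in WT and 2.07 in KD, a change of 1.05. It counted as expressed through its KD value alone, as did Fstl3 of the same list. Sost, a secreted antagonist known chiefly for blocking Wnt co-receptors, was at 2.72 and 5.86 FPKM, a change of 1.08. Of the 21 genes of this list 8 were expressed, 6 at higher and 2 at lower values in KD, with a median change of 0.30, and 4 were listed at 0 in both groups. With 1 FPKM required in both groups, which leaves out Nog and Fstl3, the median was 0.15. Twsg1, 1 of the 6, was at -0.0049 relative to endocardial markers. Bmper, a BMP-binding modulator, was at 2.05 and 1.34 FPKM, a change of -0.58 and just short of 1.5-fold with the pseudocount of 0.1. It passed on the lower side with no pseudocount (-0.61), with both groups scaled to the same sum (-0.61) and relative to endocardial markers (-0.65), which makes 3 genes of the list past 1.5-fold, 2 higher and 1 lower. Fstl1 was the most abundant at 91.0 and 84.4 FPKM.

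**Figure D4:**
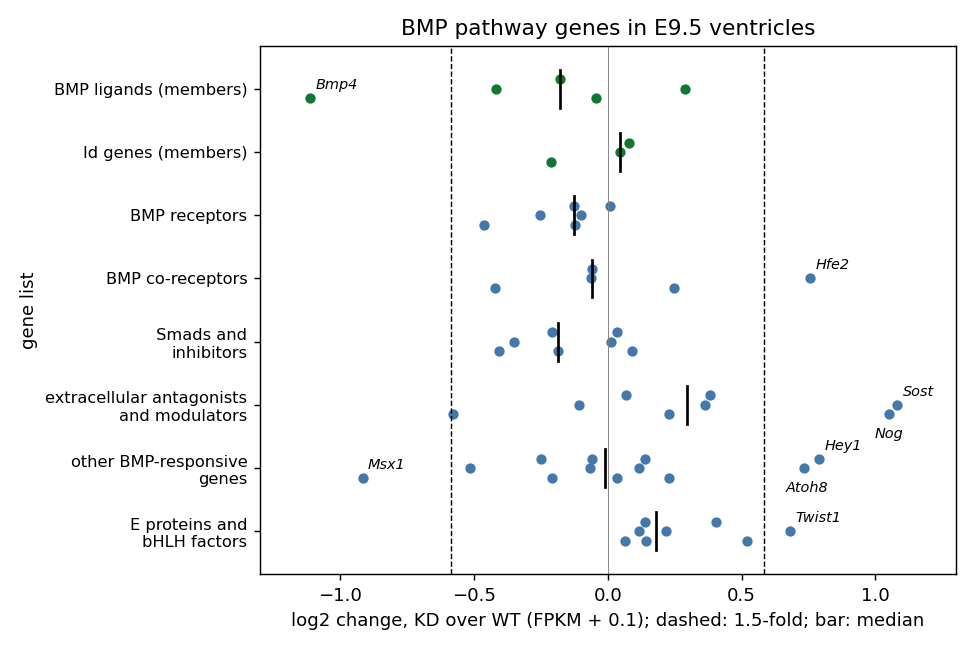
Log2 change, KD over WT, of every expressed gene of the BMP ligands, the Id genes and 6 further pathway lists, 1 point per gene, with the list median as a bar and dashed lines at 1.5-fold. Bmp4 and Msx1 lie past the line on the lower side, and Hfe2, Nog, Sost, Hey1, Atoh8 and Twist1 on the higher side.

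Other genes known to respond to BMP had no common direction. All 12 were expressed, 6 at higher and 6 at lower values in KD, and 3 passed 1.5-fold. Their median change was -0.01, but 0.036 relative to cardiomyocyte markers, with 5 FPKM required in either group, or without genes that share a locus. It was -0.042 with both groups scaled to the same sum and -0.086 relative to endocardial markers. Smad6, 1 of the 6 at higher values, turned sign relative to endocardial markers. Msx1, a homeobox gene induced by BMP in cushion and outflow mesenchyme, was lower, at 5.60 FPKM in WT and 2.92 in KD, a change of -0.92. Its locus in the table is shared with the antisense gene Msx1as, which stood at 7.99 and 5.34 FPKM. Reads of any stretch that the pair shares cannot be told apart without strand, and the length of that stretch was not measured. Msx2 was also at a lower value in KD, at 8.98 and 6.26 FPKM, a change of -0.51 that did not reach 1.5-fold. Hey1, better known as a Notch target, was higher, at 13.3 and 23.1 FPKM, a change of 0.79. Atoh8, a bHLH gene, was higher, at 1.49 and 2.55 FPKM, a change of 0.73, and with a pseudocount of 1 it was at 0.51 and did not pass. Nkx2-5 was the most abundant of the list at 224 and 247 FPKM. Id1, Id2 and Id3 thus sat between -0.21 and 0.08, while the 12 genes of this list ran from -0.92 to 0.79. The 2 sets are not matched for level. Msx1 and Hey1, at the ends of that range, were at lower levels than Id1, Id2 and Id3, where changes of all expressed genes spread more widely.

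E proteins, and bHLH factors that need them, were also measured. Of 9 such genes 8 were expressed, all 8 at higher values in KD, with a median change of 0.18 against 0.00 over all expressed genes, and 1 passed 1.5-fold. Relative to endocardial markers the median was 0.11 and Tcf12 was at -0.011, so that not all were higher on that scale. The gene past 1.5-fold was Twist1, a bHLH factor of cushion mesenchyme, at 1.98 FPKM in WT and 3.23 in KD, a change of 0.68, and with a pseudocount of 1 it was at 0.51 and did not pass. The E protein genes Tcf3, Tcf4 and Tcf12 were at 17.6 and 20.5, at 3.01 and 4.36, and at 9.98 and 10.4 FPKM in WT and KD. Hand1 was the most abundant of the list at 86.8 and 94.1 FPKM. Each of the 8 was below the levels of Id1, Id2 and Id3 in both groups.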

How the data were processed

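Ventricles of 3 WT and 3 KD embryos at E9.5 were profiled from 10 ng of total RNA by Smart-Seq2, with 12 preamplification and 9 enrichment PCR cycles and single-end reads. The submitters' processing notes name TopHat, Bowtie2, Cuffdiff and the build mm10, with no version given in the sources used here. Smart-Seq2 does not mark strand. The authors deposited 1 table in which every gene has an FPKM for WT and one for KD, each pooled over embryos. It also holds their fold changes, test scores, p-values and q-values, which were not used. The table calls the KD group KO, and it was matched to KD by genotype. There were 0 columns of single embryos, so no error, test or fit without a replicate was computed here, and the depth is unknown.

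From the group values log2((KD + 0.1)/(WT + 0.1)) was computed with Python 3.11.15, NumPy 2.4.6 and pandas 2.3.3, and drawn with Matplotlib 3.10.9. Genes at 1 FPKM or more in either group entered, with 1.5-fold as the criterion. Starts are given with 1 added, since 10012 of 20672 genes matched by symbol then equal the RefSeq start and 652 equal it as written. Promoters were the 250 bases before each RefSeq start. Only the count of genes past 1.5-fold was tried on simulated data. The planted changes were larger than 1.5-fold, and the noise was narrower than the spread over all expressed genes here. That trial therefore gives no rate of wrong calls for these data.

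The 10 genes and all lists were chosen with earlier results of these data known. Named were all 10 genes, the genes of each pathway list past 1.5-fold and its most abundant gene, and, of marker lists, the most abundant and those listed at 0 (for the neural list the last are not reported here). The other genes named, Bmpr2, Acvrl1, Bambi, Bmper, Fstl3, Twsg1, Msx2, Smad1, Smad5, Smad6, Tcf3, Tcf4 and Tcf12, and further genes of the marker lists, were chosen after their values were seen. Alternatives were other pseudocounts, filters and folds, scaling to the same sum, changes relative to the median of all genes, cardiomyocyte or endocardial markers and, chosen after seeing the data, leaving out genes that share a locus.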

Additional observations from a re-analysis of the deposited data

How the results depend on the processing

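Bmp4 ran from -1.19 to -0.92 and Bmp5 from -0.49 to -0.37 over the settings in which they were kept, Bmp2 from 0.21 to 0.33, Bmp10 from -0.25 to -0.13, Id1 from -0.29 to -0.17, Id2 from 0.01 to 0.13, Bmp7 from -0.12 to 0.01 and Id3 from -0.03 to 0.09. Without a filter, where 16.2% of 17383 genes passed, 3 of the 10 genes passed 1.5-fold (1 higher, Id4, and 2 lower, Bmp4 and Bmp6), 2 among ligands and 1 among Id genes, and the counts were 4 for other ligands, 4 for antagonists and 2 for E protein and bHLH genes. With the criterion lowered to a log2 change of 0.32, which 21.5% of expressed genes passed, 2 of the 8 expressed genes passed, both lower ligands (Bmp4 and Bmp5), with 1 receptor, 2 co-receptors, 2 Smads, 5 antagonists and 3 E protein and bHLH genes. At 2-fold the count was 0 for co-receptors, other BMP-responsive genes and E protein and bHLH genes. A pseudocount of 1 left 0 E protein and bHLH genes and 2 other BMP-responsive genes (without Atoh8). Relative to endocardial markers Msx2 was at -0.59 and made the count of other BMP-responsive genes 4. Asking for 5 FPKM in either group left 0 co-receptors, 1 antagonist and 0 E protein and bHLH genes, and asking for 1 FPKM in both groups left 1 antagonist. Over all genes a pseudocount of 1 gave 255 higher and 170 lower, no filter 1632 and 1182, 1 FPKM in both groups 302 and 202, 5 FPKM in either 166 and 112, 2-fold 166 and 123, and the lowered criterion 1409 and 1084, against 520 and 360. The log2 change of the ligand sum was -0.16 and of the Id sum -0.020 when both groups were scaled to the same sum, -0.086 and 0.058 relative to cardiomyocyte markers, and -0.21 and -0.063 relative to endocardial markers. Leaving out genes that share a locus, chosen after seeing the data, removes Bmp4 and so leaves 0 of the 10, 0 lower and 0 ligands. It also removes Msx1, which leaves 2 other BMP-responsive genes, both higher. Depth being unknown, no limit can be set on what was detectable, and values under 1 FPKM are the least certain. No paired analysis was possible because each group is a pool of its embryos in this table, and no replicate could be left out for the same reason.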

Other observations

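Some genes of the pathway lists differed between groups at levels under 1 FPKM in both, where no call was made. Gdf6, a ligand, was at 0.268 FPKM in WT and 0.791 in KD, and Gdf2, the ligand also called BMP9, was at 0.330 and 0.0616 FPKM. Mesp1, a bHLH gene of early cardiac mesoderm, was at 0.209 and 0.656 FPKM, and the antagonist Fst was at 0.314 and 0.150 FPKM. The type I receptor gene Bmpr1b was at 0.438 and 0.685 FPKM. These 5 were picked with their values in view.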
